A study of Mus musculus with 6 samples.

Results

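Genomic regions called by H3K27me3 ChIP-seq in every sample of primary mouse mesangial cells are described here. H3K27me3 is the trimethyl mark on lysine 27 of histone H3, and mesangial cells are the contractile supporting cells between glomerular capillaries. There were 3 Control samples and 3 TGF-β1 samples, whose cells received 10 ng/ml of the cytokine over 72 h, and all cells were grown in DMEM with 25.5 mM glucose and 20% foetal bovine serum and used between passages 3 and 6. The strain is not given in the sources used here. The study calls the replicates biological, while the labels do not say whether they came from separate cultures, so p-values measure the spread between these samples. The regions were chosen by peak presence: peaks of all 6 samples that shared at least 1 bp were merged into 6924 union regions, and the 240 regions that held a peak of every sample were kept. Of these, 200 lay on assembled chromosomes of mm9 and 40 lay on its unplaced (_random) sequences.

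H3K27me3 is written by the EZH2 subunit of Polycomb repressive complex 2. It is best known from CpG-rich promoters of silent developmental genes, where it accompanies repression. Satellite arrays near centromeres and the TTAGGG repeat of telomeres are packaged as constitutive heterochromatin and are better known for trimethylation of histone H3 lysine 9. Mitochondrial DNA is not wrapped around histones.

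Sample titles and the antibody name H3K27me3, whereas the labelled extraction protocol describes capture of methylated DNA and the file headers name the libraries gDNA. Between 19721434 and 22307716 tags per library remained once duplicates were removed, and peaks were called without a control library. Samples differed in peak number before any region was chosen, with 2005 to 2699 peaks in Control and 878 to 1603 in TGF-β1. The highest share of redundant tags, 0.21, was in TGF-β1 replicate 3, and the lowest, 0.11, in TGF-β1 replicate 2. How far depth, redundancy or peak number contributed to the length differences was not tested.

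Sequence was the first feature that set the shared regions apart. The 200 placed regions were sorted into kinds by sequence and position alone, with thresholds chosen after the sequences had been seen. There were 26 telomere-repeat regions, 8 satellite-like regions, 4 regions of mitochondrial sequence, 29 short-unit tandem arrays and 51 other regions of repeated sequence. The remaining regions were mostly unique, 30 of them within 2 kb of a protein-coding transcription start site (TSS) and 52 elsewhere. Examples of several kinds follow, from the plus strand of mm9 unless stated, so that what the shared regions are made of can be seen.

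The satellite-like regions are represented by 1 period of the array at the start of the chromosome 9 assembly, chr9:3000015-3000248, where the sequence best matched itself at a lag of 234 bases. The second sequence, chr12:3109758-3109991, is the start of the chromosome 12 region that had the highest fold enrichment of this kind. Capitals mark CpG dinucleotides.
chromosome 9 satellite: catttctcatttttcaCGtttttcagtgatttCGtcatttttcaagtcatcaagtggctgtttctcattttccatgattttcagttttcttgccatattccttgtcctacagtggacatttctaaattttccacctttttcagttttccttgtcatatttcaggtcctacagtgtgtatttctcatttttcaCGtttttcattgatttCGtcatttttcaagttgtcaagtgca
chromosome 12 satellite-like: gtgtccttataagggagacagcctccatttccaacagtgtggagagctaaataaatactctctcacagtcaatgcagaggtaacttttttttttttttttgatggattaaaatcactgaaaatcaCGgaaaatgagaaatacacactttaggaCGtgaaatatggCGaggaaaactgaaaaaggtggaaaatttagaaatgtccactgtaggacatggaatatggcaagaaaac

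Short-unit tandem arrays included 17 regions built on 1 hexamer, AGCAGG in any phase on either strand. They are represented by chr2:51408841-51409020, the start of the widest such region on chromosome 2. Capitals mark exact copies of the hexamer. An array with a 40-base unit, chr1:108369678-108369797, is shown with every second unit in capitals.
chromosome 2 hexamer array: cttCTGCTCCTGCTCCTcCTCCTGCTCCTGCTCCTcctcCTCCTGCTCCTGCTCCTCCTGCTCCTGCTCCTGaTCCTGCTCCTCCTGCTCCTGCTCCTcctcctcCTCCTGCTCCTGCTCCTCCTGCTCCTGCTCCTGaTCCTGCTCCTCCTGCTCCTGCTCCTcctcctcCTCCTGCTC
chromosome 1 40-base array: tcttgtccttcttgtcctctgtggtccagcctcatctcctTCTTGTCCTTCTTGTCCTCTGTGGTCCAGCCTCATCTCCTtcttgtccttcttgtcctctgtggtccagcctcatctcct

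Mitochondrial sequence inserted in the nuclear genome is represented by chr2:22444236-22444435, the start of a region within Myo3a. Capitals mark the 4 of 200 bases that differ from the mitochondrial genome of the same assembly.
chromosome 2 mitochondrial copy: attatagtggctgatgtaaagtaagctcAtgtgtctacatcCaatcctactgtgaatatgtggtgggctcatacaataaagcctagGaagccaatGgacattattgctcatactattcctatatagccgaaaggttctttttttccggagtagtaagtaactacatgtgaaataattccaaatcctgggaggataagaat

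The sequence chr2:20821419-20821618, in an Arhgap21 intron, heads a family of 6 shared regions, with CpG in capitals. The other 5 matched it at 98.0% to 99.7% over 250 to 364 bases. From general knowledge, and not from a sequence file, it reads as part of the large-subunit ribosomal RNA.
Arhgap21 intron: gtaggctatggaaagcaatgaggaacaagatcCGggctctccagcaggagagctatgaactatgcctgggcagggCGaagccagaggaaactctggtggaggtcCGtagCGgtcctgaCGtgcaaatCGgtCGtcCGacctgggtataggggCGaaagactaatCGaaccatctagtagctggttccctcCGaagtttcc

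Unique promoter regions are represented by the 200 bases before the most upstream annotated coding TSS of 0610040J01Rik, chr5:64203534-64203733, and of Cdh1, chr8:109127051-109127250. CpG is in capitals, and the windows held 21 and 12 CpG dinucleotides, against 0 in the hexamer window.
0610040J01Rik upstream: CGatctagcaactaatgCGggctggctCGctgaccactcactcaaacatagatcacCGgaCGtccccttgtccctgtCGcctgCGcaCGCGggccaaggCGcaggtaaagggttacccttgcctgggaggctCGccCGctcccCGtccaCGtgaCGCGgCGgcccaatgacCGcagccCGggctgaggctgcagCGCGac
Cdh1 upstream: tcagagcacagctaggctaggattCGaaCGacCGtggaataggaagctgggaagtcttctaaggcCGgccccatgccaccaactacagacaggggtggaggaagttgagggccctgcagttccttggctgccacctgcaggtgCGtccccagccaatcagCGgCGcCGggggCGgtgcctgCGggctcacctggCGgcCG

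Repeated sequence was more frequent in regions called in every sample than in regions called in fewer. A region was counted as repeated where over 50% of its 31-base words occurred more than once in the genome. This held for 98 of the 200 placed shared regions, or 49.0%, against 25.6% of regions with a peak in 5 samples and 8.12% of those with a peak in 1. Telomere repeats made up 0.16% of regions in 1 sample, 10.9% in 5 and 13% in 6. Start sites showed another order: 20.5% of regions in 1 sample, 57.5% of regions in 4 and 20.5% of the shared regions lay within 2 kb of a coding TSS. The median CpG observed to expected ratio was 0.19 in 1 sample, 0.53 in 4 samples and 0.22 in all 6. These are descriptions of regions grouped by the peak calls and carry no test.

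**Figure D1:**
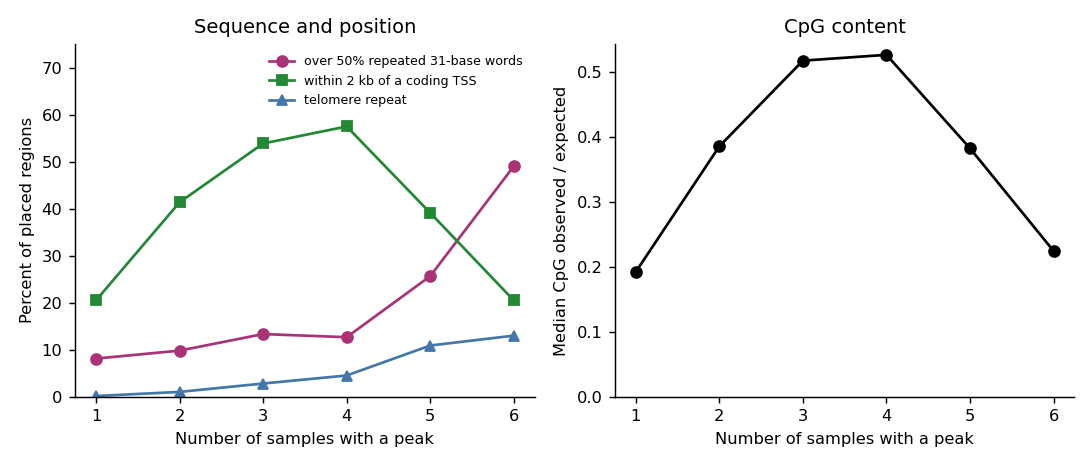
Share of placed union regions with over 50% repeated 31-base words, within 2 kb of a protein-coding TSS, or of telomere repeat (left, percent), and median CpG observed to expected ratio (right), by the number of samples with a peak (x axis). Repeated sequence reached 49.0% at 6 samples, while the TSS share peaked at 57.5% at 4 samples.

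The edge of the rule lay mostly with the TGF-β1 samples. Of the 164 regions with a peak in 5 samples, 83 lacked one in TGF-β1 replicate 2, 34 in TGF-β1 replicate 3 and 21 in TGF-β1 replicate 1. Control samples were the missing ones in 6 to 11 regions each. The shortest summed length of any sample had a median of 320 bp inside the rule and 220 bp, among the samples with a peak, just outside it. In 218 of the 240 shared regions every sample had exactly 1 peak, and in 17 no base was covered in all 6 samples, so that the peaks were joined through a chain.

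By the GENCODE annotation of the same assembly, 111 placed shared regions were intergenic, that is outside protein-coding genes and their 2 kb TSS windows. Another 43 were intronic, 41 within 2 kb of a coding TSS, 3 in coding sequence and 2 in untranslated exons. Some intergenic regions overlapped non-coding genes or pseudogenes. The intergenic share was 55.5%, against 58.0% of regions in 1 sample, 30.8% of those in 4 and 41.7% of those in 5. Chromosome 8 held the most, 22, followed by chromosome 5 with 19, and chromosomes 8 and 5 also held 10.4% and 7.45% of all union regions. The unplaced sequence chrUn_random held 38 shared regions, 15.8% of the members against 1.16% of all union regions. In 6 regions the nearest chromosome end was within 1 kb of the last assembled base, and 5 of those were telomere repeats. The sixth lay on the mitochondrial genome.

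Few genes of any list had a shared region. Across all 22238 protein-coding genes, 2390 had a union region over the body or 2 kb upstream and 95, or 0.427%, had a shared one, so lists of the sizes given here would hold few at that share. Of 175 homeobox and paired genes, 62 had a union region and 0 had a shared region. The same held for 138 other developmental transcription factors, with 46 and 0, and for 173 extracellular matrix genes, with 42 and 0. Signalling genes of the Wnt, BMP, FGF, TGF-β and hedgehog families counted 135, with 43 and 2, the latter Bmp3 and Fgfr2. Ion channels counted 259, with 109 and 2 (Cacna1a and Kcnn2), and adhesion genes 129, with 37 and 1 (Cdh1). These shares of 1.48%, 0.772% and 0.775% were above that of all genes, on counts of 1 or 2. The order changed when only genes with any union region were counted. Then ion channels (2 of 109) and adhesion genes (1 of 37) were below all genes (95 of 2390), and signalling genes (2 of 43) were above. No shared region was found at olfactory and vomeronasal receptors (1443 genes), clustered multicopy families (472) or Zfp genes (367). Testis-expressed X and Y genes (76) and histone and ribosomal protein genes (220) had none either. In the order given, 7, 15, 18, 0 and 3 genes of these lists had any union region. None of the 8 mesangial markers checked, such as Pdgfrb, Acta2 and Des, had a peak in any sample, and none of the markers of podocytes, tubule, endothelium or leukocytes had a shared region. Peaks of this mark do not measure expression, so they do not test the identity of the cells.

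Summed peak length, the number of bases under peaks in a region, was then compared between groups. Over the 240 regions the total was 191583, 204337 and 181750 bp in Control and 170784, 164433 and 158712 bp in TGF-β1. Every TGF-β1 total lay below every Control total. The mean was 192557 ± 11325 bp in Control and 164643 ± 6039 bp in TGF-β1 (SD, n = 3), 85.5% of Control. The log2 difference of −0.22 gave p = 0.1 in a 2-sided exact permutation test, the smallest p that 3 against 3 samples allow. Leaving out 1 sample at a time kept it between −0.27 and −0.18. The rule left out every region that lacked a peak in any TGF-β1 sample. The difference and its p therefore describe the members kept and not all regions.

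Outside the shared regions the totals differed more. They were 1300156, 1341804 and 813298 bp in Control and 548581, 284305 and 434559 bp in TGF-β1, 36.7% of Control on average. The shared regions therefore held 12.8%, 13.2% and 18.3% of the bases under peaks in Control and 23.7%, 36.6% and 26.8% in TGF-β1. The log2 ratio of shared to other length was 1.24 higher in TGF-β1. The rule required a peak in every TGF-β1 sample, so part of this difference was fixed by it and no test is read from it. With medians per region in place of totals the difference was 0.12, and with peaks of at least 2-fold enrichment 0.49.

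**Figure D2:**
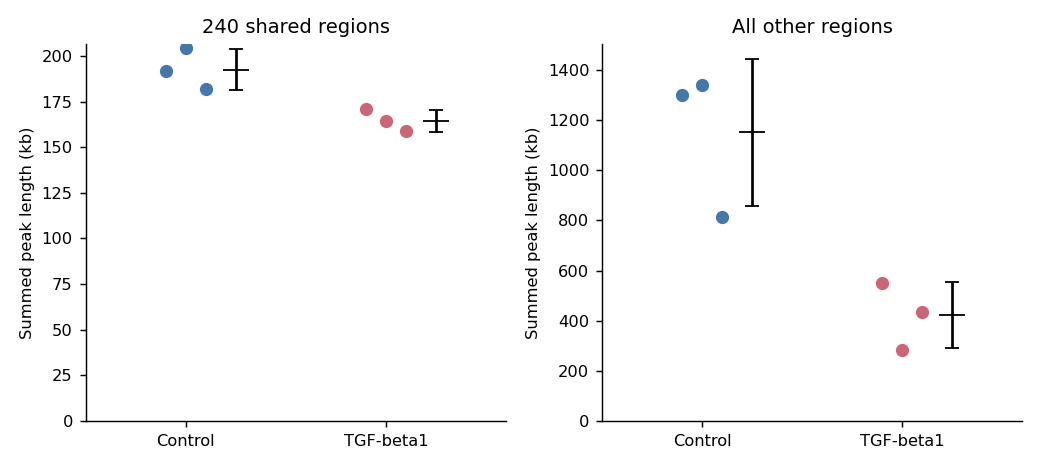
Summed peak length in kb by sample (points; 3 per group) in the 240 shared regions (left) and in all other union regions (right), with the mean ± SD beside each group. In the shared regions the TGF-β1 mean was 85.5% of Control, and elsewhere 36.7%.

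No single shared region passed the adjusted threshold. With limma on log2 length, 0 of 240 regions were shorter and 0 were longer in TGF-β1 at a Benjamini-Hochberg adjusted p under 0.05 (0% called each way), with 0.21 as the lowest adjusted p. At an unadjusted p under 0.05, 24 regions (10%) were shorter and 3 (1.25%) were longer. In a fit over all 6924 union regions on log2(length + 100 bp), 6.01% were shorter and 0.217% longer at that unadjusted p, and of the shared regions 0% were shorter and 0.417% longer. Every TGF-β1 sample was below every Control sample in 42 of the shared regions (17.5%) and above in 3 (1.25%), against 4.42% and 0.159% of all union regions, most of which had no peak in most samples. The mean log2 difference was negative in 187 regions and positive in 53, with a median of −0.12 and a range from −1.72 to 1.64. Without TGF-β1 replicate 1, 3 regions were called shorter. Without Control replicate 2 or Control replicate 3, 1 region was called shorter, and without Control replicate 3, 1 was called longer.

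Kinds of sequence differed in the size of the length difference. These values are descriptive. No sample had fewer than 163 bp in a shared region, and fragment lengths in the headers were 161 to 182 bp. Median width was 311.5 bp in telomere repeats and 1473 bp in mostly unique regions at start sites. Short regions therefore had less room to be shorter and still hold a peak in every sample. How far this set the order of the kinds was not tested. The largest median difference was in the 30 mostly unique regions at start sites, at −0.65 on the log2 scale, with 26 of 30 negative. In 8 of them (26.7%) all TGF-β1 samples were below all Control samples, against 42 of all 240 shared regions (17.5%). Totals of these 30 start-site regions were 32656, 33665 and 24999 bp in Control and 24093, 17935 and 19736 bp in TGF-β1, groups that did not overlap. Totals overlapped between groups in the short-unit tandem arrays and the satellite-like regions, and did not overlap in any of the other kinds. In the mostly unique regions away from start sites, totals were 36068 to 39423 bp in Control and 34332 to 35303 bp in TGF-β1. That separation rested on 1 long region, chr17:39979993-39985744, without which the groups overlap. The 52 mostly unique regions away from start sites had a median of −0.08 and the 51 other repeated regions a median of −0.11. The 40 unplaced regions had a median of −0.18. Medians of −0.04, −0.07 and −0.03 were seen in the short-unit tandem arrays, telomere repeats and satellite-like regions. The 4 mitochondrial regions had a median of −0.56.

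**Figure D3:**
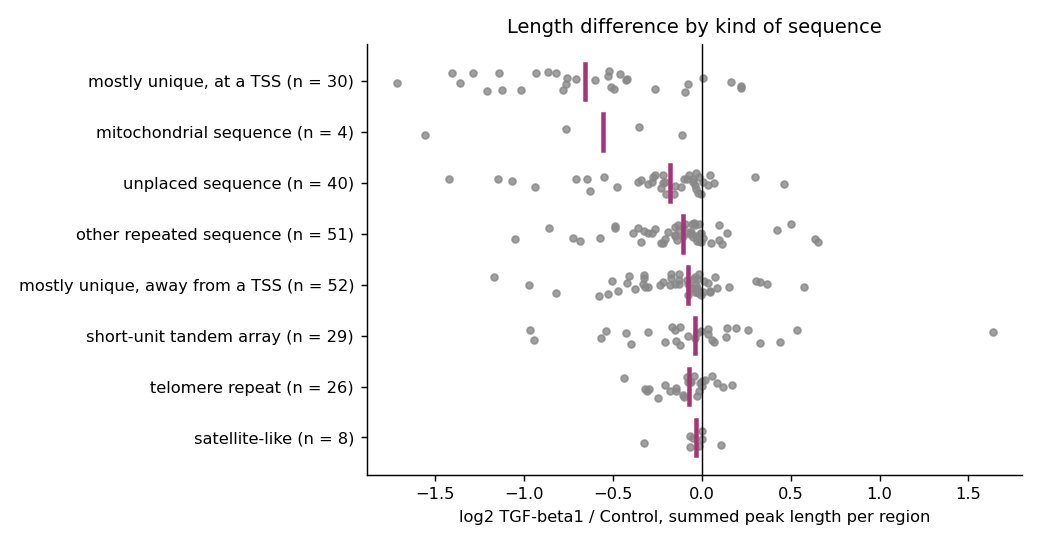
Log2 ratio of summed peak length, TGF-β1 over Control, for each shared region (grey points, spread vertically only for visibility) by kind of sequence (y axis), with the median of each kind as a bar. The bar lies at −0.65 for mostly unique regions at start sites and at −0.03 for satellite-like regions.

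The planned contrast of repeated and other placed regions asked whether repeat content went with the difference. The median log2 length of the 98 regions with over 50% repeated words minus that of the other 102 was 0.13, 0.16 and 0.43 in Control and 0.56, 0.50 and 0.35 in TGF-β1. The difference between groups was 0.23 with p = 0.2 in the 2-sided exact permutation test, and the groups overlapped in these samples. It was 0.57 (exact permutation p = 0.1) when over 20% repeated words was enough, 0.15 when over 80% was needed and 0.13 with peaks of at least 2-fold enrichment. The groups were separate, with the smallest possible exact permutation p of 0.1, with peaks within 1000 bp joined (0.28), in regions with a commonly covered base (0.23), without Control replicate 3 (0.32) and, as alternatives chosen after seeing the data, without telomere-repeat, satellite-like and mitochondrial regions (0.34) or with 1 peak per sample (0.30).

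Peak borders also differed in how closely they coincided. The share of a region covered in all 6 samples had a median of 82.5% in satellite-like regions, 74.8% in telomere repeats, 62.1% in mostly unique regions away from start sites and 6.55% in mostly unique regions at start sites. Of the 17 regions with no commonly covered base, 11 were of this last kind. The spread between replicates was also widest in this kind: the median SD of log2 length within Control was 0.49, against 0.10 in telomere repeats and 0.12 in satellite-like regions and in mostly unique regions elsewhere.

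The telomere-repeat regions, which were short at a median width of 311.5 bp, had small length differences. Their totals, like those of most kinds, did not overlap, at 8474, 8868 and 8429 bp in Control and 8255, 7952 and 8049 bp in TGF-β1. In 6 of the 26 (23.1%) every TGF-β1 sample was below every Control sample, against 42 of all 240 shared regions (17.5%). At the end of chromosome 11 the length was 266, 284 and 273 bp in Control and 272, 283 and 270 bp in TGF-β1, groups that overlapped almost fully. At the chromosome 2 end it was 616, 644 and 622 bp in Control and 614, 625 and 589 bp in TGF-β1, also with overlap, whereas at the chromosome 18 end 540, 553 and 544 bp in Control and 519, 529 and 524 bp in TGF-β1 did not overlap. The 5 regions within 1 kb of a last assembled base had log2 differences from −0.06 to 0.02, and the 21 other telomere-repeat regions from −0.44 to 0.17. On the Y chromosome the 1 shared region, chrY:2652095-2652418, was also of this kind, with 297, 324 and 278 bp in Control and 280, 296 and 273 bp in TGF-β1. It was the single union region of that chromosome.

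Among the satellite-like regions, the array that began 15 bases into the chromosome 9 assembly, chr9:3000015-3004773, measured 4743, 3768 and 4101 bp in Control and 4068, 4009 and 4072 bp in TGF-β1. Its neighbour, chr9:3006318-3017214, was the widest shared region, at 10897 bp, and also among the most variable. There the lengths were 1893, 7017 and 2202 bp in Control and 4355, 3820 and 2197 bp in TGF-β1, and Control replicate 2 stood above the rest. The chromosome 2 member over the predicted gene Gm10800 was nearly fixed, at 1128, 1130 and 1140 bp in Control and 1126, 1125 and 1147 bp in TGF-β1. Low fold enrichment went with the chromosome 9 regions, with means of 1.28 and 1.17 over the local background, whereas the chromosome 12 member printed above reached 5.36.

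Mitochondrial sequence was found in 4 regions. On the mitochondrial genome itself, the region chrM:13169-16232 overlapped the genes for cytochrome b and complex I subunits. There the lengths were 1890, 2079 and 3064 bp in Control and 1860, 1849 and 1676 bp in TGF-β1, groups that did not overlap. The nuclear copy chr1:24618538-24622888 was 99.95% identical to mitochondrial DNA over 4351 bp and measured 4315, 3242 and 4308 bp in Control and 1616, 3712 and 2061 bp in TGF-β1, groups that overlapped. The copy within Myo3a, a gene for a motor protein of hair cells, was 98.1% identical and measured 1222, 1298 and 1304 bp in Control and 230, 578 and 612 bp in TGF-β1. That log2 difference of −1.56 was the most negative of the 4. Identity this high means that a short read from the mitochondrial genome and one from the nuclear copy may not be told apart.

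Other long regions were among the 10 largest placed members. The region chr17:39979993-39985744, which overlaps the pseudogene AY036118, measured 5687, 5708 and 5727 bp in Control and 4954, 5058 and 5673 bp in TGF-β1. Every TGF-β1 sample was below every Control sample there, by a mean log2 difference of −0.13 ± 0.08 (SE). Its words were mostly unique in this assembly. In the RefSeq gene table of another build, GRCm38.p6, AY036118 neighbours the 18S rRNA-related Rn18s-rs5. The region near Zfp825, chr13:74665930-74668148, measured 2104, 2201 and 2204 bp in Control and 2080, 2120 and 2082 bp in TGF-β1, and chr17:13743491-13746041 in an intron of Tcte2 measured 2550, 2547 and 2500 bp against 2510, 2530 and 2500 bp. Both pairs of groups overlapped. The unique start-site region chr11:88829124-88832090 at Coil, which encodes the Cajal body protein coilin, measured 2890, 2912 and 2901 bp in Control and 2937, 2872 and 2471 bp in TGF-β1.

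The 9 shared regions in the first 17 Mb of chromosome 5, among them neighbours of the Speer gene family, went both ways. Of these, 3 had a negative and 6 a positive log2 difference, from −0.57 to 0.65. The longest, chr5:15050974-15054415, measured 3221, 3371 and 2498 bp in Control and 2178, 1647 and 2304 bp in TGF-β1, without overlap. The next, chr5:15183972-15187210 over Speer7-ps1, measured 3238, 2974 and 2423 bp in Control and 2474, 2766 and 2485 bp in TGF-β1, with overlap. The region chr5:14994446-14996539 measured 1647, 1603 and 547 bp in Control and 1572, 1708 and 2029 bp in TGF-β1, with Control replicate 3 far below the others. Its fitted log2 difference was 0.64 ± 0.47 (SE).

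The 6 regions of the Arhgap21 family all had negative log2 differences, with a median of −0.23. The Arhgap21 region, from which the family was built, is counted in the 6. It was among the 5 shorter regions of smallest limma p, so its own direction adds no information. Negative differences were also found in 187 of all 240 shared regions. In the Arhgap21 intron itself, where the gene encodes a GTPase-activating protein, the length was 467, 464 and 418 bp in Control and 314, 225 and 310 bp in TGF-β1. The groups did not overlap, and the log2 difference of −0.68 ± 0.16 (SE) had a limma adjusted p of 0.32. The annotated 5S rRNA region on chromosome 8, chr8:126061320-126063708, measured 855, 2212 and 192 bp in Control and 1200, 495 and 291 bp in TGF-β1, with overlap. The Arhgap21 family copies within Jarid2, a Polycomb complex cofactor, and Filip1l differed by −0.07 and −0.15.

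Short-unit tandem arrays contained 2 of the 3 regions in which every TGF-β1 sample exceeded every Control sample. The hexamer array chr15:26847712-26848623 measured 192, 223 and 380 bp in Control and 720, 875 and 776 bp in TGF-β1. This was the largest positive difference, 1.64 ± 0.28 (SE), with a limma adjusted p of 0.21, and no base of it was covered in all 6 samples. The 40-base array chr1:108369678-108370352 measured 404, 422 and 332 bp in Control and 594, 441 and 538 bp in TGF-β1. The third such region, chr3:141854497-141854935, some distance from Bmpr1b, was mostly unique and measured 295, 306 and 319 bp in Control and 363, 357 and 417 bp in TGF-β1. The other region among the 5 smallest p in that direction, chr4:64158797-64159207, measured 296, 229 and 389 bp in Control and 377, 411 and 363 bp in TGF-β1, with overlap. The hexamer arrays as a group did not share the direction of the chromosome 15 array, since 10 of the 17 had negative differences and their median was −0.12. Their median GC content was 65.9%, with CpG ratios of 0 to 0.04.

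Most unique start-site regions had the CpG-rich sequence usual for Polycomb targets, with medians of 61.1% GC and 0.67 for the CpG ratio. The ratio ranged from 0.12, at Coil, to 0.89, so not every region of this kind was CpG-rich. The clearest difference was at 0610040J01Rik, chr5:64202955-64204068, with 904, 805 and 963 bp in Control and 233, 437 and 408 bp in TGF-β1. The groups were well separated and the log2 difference was −1.36 ± 0.27 (SE) with a limma adjusted p of 0.21. At Atf3, a stress-induced transcription factor, the region measured 965, 903 and 722 bp in Control and 561, 232 and 332 bp in TGF-β1. At Lphn3, an adhesion receptor named here after its values were seen because its difference of −1.72 was the most negative, it measured 511, 1213 and 981 bp in Control and 171, 228 and 439 bp in TGF-β1. Acta1, skeletal muscle actin, had 1436, 1112 and 1353 bp in Control and 1037, 774 and 260 bp in TGF-β1. None of these start-site regions passed the adjusted test.

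**Figure D4:**
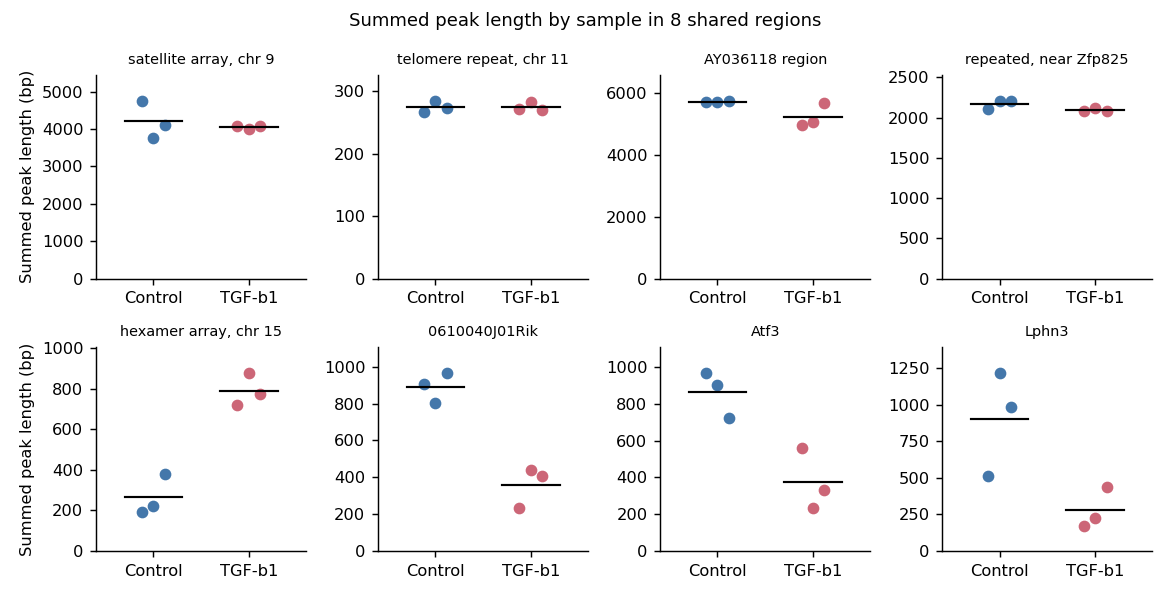
Summed peak length in bp (y axis from 0) by sample in 8 shared regions, with a line at each group mean. The satellite, telomere-repeat, AY036118 and Zfp825 regions (top) had mean log2 differences between −0.13 and 0.00, while the chromosome 15 hexamer array was longer and the regions at 0610040J01Rik, Atf3 and Lphn3 were shorter in every TGF-β1 sample.

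Other start-site regions that did not overlap between groups were at Gcat, an enzyme of threonine catabolism, Galr2, a galanin receptor, 1810019J16Rik and Kpna1, an importin named here after its values were seen. Gcat measured 1525, 824 and 809 bp in Control and 596, 475 and 731 bp in TGF-β1. Galr2 measured 1095, 800 and 832 bp in Control and 698, 719 and 503 bp in TGF-β1. At 1810019J16Rik the lengths were 805, 809 and 766 bp in Control and 625, 691 and 446 bp in TGF-β1. At Kpna1 they were 321, 331 and 398 bp in Control and 284, 302 and 284 bp in TGF-β1.

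Other start-site regions had overlapping groups. At Cdh1, which encodes E-cadherin, the lengths were 1463, 1084 and 915 bp in Control and 955, 378 and 665 bp in TGF-β1. At Comp, a cartilage matrix protein, they were 2803, 1806 and 1949 bp in Control and 1819, 1476 and 1049 bp in TGF-β1. Kcnn2, a calcium-activated potassium channel, ranged from 526 to 1847 bp in Control and from 381 to 1924 bp in TGF-β1. Cacna1a, a voltage-gated calcium channel, ranged from 867 to 1192 bp in Control and from 494 to 1186 bp in TGF-β1. Negative differences with overlapping groups were also measured at Gipc3, Nefh, Kbtbd11, Ankrd43, Tox3, Lingo3, Gm996 and Coro2a, from −1.41 at Ankrd43 to −0.10 at Coro2a. Stox2 had a positive difference of 0.22 with 258 to 1475 bp in Control and 789 to 889 bp in TGF-β1. At Bmp3, a ligand of the bone morphogenetic protein family, the region measured 516, 754 and 195 bp in Control and 227, 221 and 623 bp in TGF-β1. The intronic region in Fgfr2, a fibroblast growth factor receptor, measured 300, 260 and 271 bp in Control and 281, 212 and 190 bp in TGF-β1.

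Repeated regions lay at start sites as well. The region at Fcgr3, an immunoglobulin receptor, had 91.7% repeated words and measured 2001, 1630 and 2248 bp in Control and 1933, 1195 and 1420 bp in TGF-β1. Regions at Creg1, Dnahc14 and Gm4981 were also repeated or tandem and had differences of −0.13, −0.03 and −0.11. The predicted genes Gm10722, Gm10720, Gm10222, Gm10800 and Gm10801 lay on the satellite and mitochondrial copies described above.

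The unplaced regions had the highest fold enrichment of any kind, a median of 2.89 against 1.86 for the placed regions, and no sequence or gene was analysed here for them. The 1 region on chr9_random, bases 241957 to 243617, measured 1599, 1600 and 1637 bp in Control and 1600, 1575 and 1591 bp in TGF-β1, nearly the same in all samples. On chrUn_random, bases 5495484 to 5497300 measured 1775, 1817 and 1771 bp in Control and 1785, 1809 and 1789 bp in TGF-β1. Bases 5888797 to 5890515 measured 980 to 1719 bp in Control and 984 to 1007 bp in TGF-β1. Other regions of that sequence had lower values in every TGF-β1 sample. Bases 5728092 to 5730910 measured 1813, 2739 and 2064 bp in Control and 711, 1788 and 747 bp in TGF-β1, and bases 4062750 to 4064279 measured 1460, 1418 and 1384 bp against 1372, 809 and 823 bp. The smallest unadjusted p among shorter regions was also there, at bases 5745687 to 5747473, with 1568, 1710 and 1063 bp in Control and 689, 638 and 701 bp in TGF-β1. Its log2 difference was −1.07 ± 0.20 (SE) with a limma adjusted p of 0.21. At bases 4516813 to 4517979 the lengths were 1102, 1089 and 1167 bp in Control and 797, 777 and 615 bp in TGF-β1. A further region among the 5 smallest p in that direction, chr16:3114657-3117045, lay on repeated sequence and measured 1085, 1164 and 1675 bp in Control and 790, 761 and 776 bp in TGF-β1.

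Fold enrichment, the deposited ratio of a peak to the local background of its own library, was higher in TGF-β1, whereas length was lower. Both values come from the same broad peak calls, and how far they depend on each other was not tested. The per-sample median over the 240 regions was 1.82, 1.80 and 1.95 in Control and 1.97, 1.96 and 2.04 in TGF-β1, and every TGF-β1 value lay above every Control value. The log2 difference of the medians was 0.10 with p = 0.1 in the 2-sided exact permutation test, and like that of length it describes only the members kept by the rule. Without the 40 unplaced regions the groups overlapped and the difference was 0.08 (exact permutation p = 0.2), and they also overlapped without telomere-repeat, satellite-like and mitochondrial regions (0.10, exact permutation p = 0.2), an alternative chosen after seeing the data. The difference changed sign to −0.06 (exact permutation p = 0.4) when only the 47 regions with a peak of −log10 q of at least 1 in every sample were kept. Telomere repeats had medians of 1.83, 1.78 and 1.87 in Control and 2.33, 1.92 and 2.06 in TGF-β1, without overlap. The groups also did not overlap in other repeated sequence, from 1.74 to 1.87 in Control and 1.91 to 1.98 in TGF-β1, or in unique start-site regions, from 1.67 to 1.84 and 1.89 to 1.92. They overlapped in each of the other kinds.

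The regions with the highest fold enrichment on assembled chromosomes were not the longest. The highest, chr3:8244693-8246654, lay far from the nearest coding start, that of Stmn2, with a mean of 7.19-fold and lengths of 1340, 1881 and 1240 bp in Control and 1319, 1842 and 1380 bp in TGF-β1. The groups overlapped. The chromosome 12 satellite-like region followed, with 457, 467 and 443 bp in Control and 433, 444 and 428 bp in TGF-β1. Next was chr6:49169890-49171135 near Igf2bp3, at 4.02-fold with 1219, 1168 and 431 bp in Control and 424, 548 and 791 bp in TGF-β1. The regions chr3:5860317-5860899 and chr13:3372156-3372951 reached 4.0-fold and 3.79-fold. The first measured 580, 530 and 539 bp in Control and 508, 511 and 478 bp in TGF-β1, without overlap, and the second 789, 775 and 717 bp against 779, 770 and 722 bp, with overlap.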

How the data were processed

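H3K27me3 ChIP-seq peak lists of 3 Control and 3 TGF-β1 samples were used, grouped by the treatment label. According to the study's methods, the authors used BWA and the mm9 genome and kept uniquely placed reads, 1 per start position. Peaks nevertheless covered repeated sequence. The chromosome 1 mitochondrial copy, with 98.8% repeated words, had 3242 to 4315 bp under peaks in Control. Whether the tags in repeated regions were uniquely placed cannot be told from peak lists and was not tested. The headers record broad calls, 1 sample at a time, by MACS 2.1.0.20150731 without a control library, at q thresholds of 0.01 and 0.1 with 49 bp tags. The deposited pileup is a coverage signal, and the deposited fold enrichment is a ratio to the local background. The deposited p and q columns are −log10 values. The deposited length column gives the bases of each peak.

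Regions were merged at 1 bp of overlap. Repeats were read from 31-base words of the mm9 genome, tandem lags and BLAST+ 2.17.0 alignments. Telomere repeats needed 20% of bases in runs of 3 units, short-unit arrays a lag of up to 100 bases with 80% identity, satellite-like and mitochondrial regions 50% aligned bases. Genes came from GENCODE M1 on the same assembly. Totals and medians were compared with a 2-sided exact permutation test (smallest p 0.1), and log2 lengths per region with limma 3.58.1 in R 4.3.3, without a pseudocount. Named regions were the 10 longest and the 5 most enriched placed regions, the 5 longest unplaced regions, the 5 per direction of smallest limma p, up to 30 start-site genes by length, and listed genes. The members and lists were chosen with earlier results of these data known. Sequences of the unplaced regions were not analysed here, and some other sequences are not reported here. Tag counts per peak were not used, so precision rests on 3 samples per group.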

Additional observations from a re-analysis of the deposited data

How the results depend on the processing

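The total length of the shared regions stayed lower in TGF-β1 under all alternatives tried, between −0.27 and −0.18 on the log2 scale. With the replicate block (sign-flip test of 3 pairs, exact p = 0.25) it was −0.22, the shared to other ratio 1.24, the repeat contrast 0.23 and the median fold enrichment 0.10, and 0 regions were called shorter or longer, so the block changed no call. The numbers share no stated origin: the deviations of same-numbered samples correlated at −0.04, −0.05 and −0.10 over the shared regions. Leaving out 1 sample gave 0 to 3 regions called shorter and 0 to 1 called longer by limma. The other range from leaving out samples was 0.98 to 1.43 for the shared to other ratio, 0.17 to 0.32 for the repeat contrast and 0.08 to 0.14 for the fold enrichment. Requiring a −log10 q of 1 or more turned the median fold enrichment difference to −0.0604, for which the cause was not tested. No limma call appeared with peaks joined within 1000 bp (243 regions), stricter peaks (47 and 26 regions), without unplaced regions, over all union regions or with a variance trend. Chosen after seeing the data, leaving out telomere, satellite-like and mitochondrial regions gave a length difference of −0.23 and keeping regions with 1 peak per sample −0.20. How far depth limits the length differences of single regions was not tested.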
